A study of Homo sapiens with 72 samples.

Results

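The loss of mRNAs over the first 3 h after a block of transcription was followed in A375 cells, an established human melanoma line, that had grown without glutamine for 18 h (mQ). Of the 72 libraries of the series, 6 carried this comparison, namely 3 libraries harvested at once (0 h) and 3 harvested after 3 h with triptolide (25 µM, the T arm). They were chosen by their labels alone, and no measured value entered the choice. Triptolide stops the initiation of transcription by RNA polymerase II, so that in principle an mRNA present at 0 h is only kept or lost afterwards. Some genes nevertheless rose from near 0 counts, as described below. Further libraries with the same 3 replicate numbers came from cells in control medium with glutamine (pQ, T arm) and from glutamine-free cells given triptolide together with cycloheximide (100 µg/ml, TCHX arm), which blocks translation elongation. By its label the RNA was cytoplasmic, from Triton lysates, although long RNAs held in the nucleus summed to 5090 to 8758 CPM (counts scaled by library total and TMM factor) in these 6 libraries, MALAT1 foremost, with 144574 counts over the 3 libraries at 0 h. In the pQ T libraries that sum was lower, at 2090 to 3270 CPM at 0 h and 3212 to 5403 CPM at 3 h. What this means for comparisons between media was not tested. The RNA was read from the 3′ end of polyadenylated transcripts (QuantSeq). The labels do not say that replicates came from separate cultures, so p-values measure the spread between these libraries, which may be technical.

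Cells short of an amino acid phosphorylate the initiation factor eIF2α, which raises translation of the transcription factor ATF4 and, through it, transcription of genes for amino acid supply, redox balance and cell death. How long such an induced mRNA lasts depends on its decay. Many mRNAs of regulators that are switched on briefly, among them the immediate early genes, are short-lived, and AU-rich elements in their 3′ untranslated regions (UTRs) recruit proteins that bring deadenylases. Translation itself also takes part in the decay of many mRNAs.

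The 3 libraries at 0 h held 8081022, 10511429 and 8896544 counts and the 3 libraries at 3 h held 8831367, 6565272 and 9400333. Across genes, which are not independent replicates, log levels correlated with r of 0.973 to 0.986 within a time and of 0.928 to 0.955 between times. Of 12 melanocyte and melanoma markers, 10 were tested, while MLANA and TYR, which encode melanosomal proteins, stayed at 8 to 13 counts over 3 libraries. Of the 6 leukocyte markers 0 passed the filter on low counts, with a summed level of 0 to 0.828 CPM in these 6 libraries, and of the keratinocyte markers only KRT10 did. In 2 libraries of replicate 3 outside the comparison, mQ T 5 h and pQ TCHX 0 h, reads fell on 20364 and 19940 genes, more than in any of the other 34 libraries of the medium experiment. Leukocyte markers summed to 61.8 and 61.5 CPM in these 2, against 0 to 1.80 CPM in the other 34.

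AU-rich sites lay in the 3′ UTRs of several of the mRNAs that were lost fastest, and of many other mRNAs. They are shown here because TATTTAT is the core of the elements bound by the ZFP36 family of decay factors. The search covered the sense strand of the 3′ UTR of 1 transcript per gene (GENCODE v44, GRCh38). The first site in each of 5 genes among the 15 largest falls is printed 5′ to 3′ with the motif in capitals. The motif occurred in 37.99% of all tested coding genes and in 42.8% of those called lower by at least 8-fold. A site is therefore not particular to fast loss. DDIT3 and ATF3, regulators of the stress response, were added after their values were seen.
SNAI1 (chr20:49988777-49988806, plus strand): aggtacactggTATTTATatttcaaacatt
RGS16 (chr1:182599639-182599668, minus strand): cccatgcgagaTATTTATacctcaaacact
CHAC1 (chr15:40955959-40955988, plus strand): acttgaaacttTATTTATtgcaccatgttg
SPRY2 (chr13:80336121-80336150, minus strand): agtgtaaagaaTATTTATttgaagttttat
CCN1 (chr1:85583559-85583588, plus strand): actgaatgtttTATTTATcaaaatgtagct
DDIT3 (chr12:57516615-57516644, minus strand): gattgtacattTATTTATtactgtccctat
ATF3 (chr1:212620704-212620733, plus strand): aaaatattactTATTTATcctagtattcct

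The first question was which mRNAs were lost faster, or slower, than the typical mRNA within 3 h. Of 12201 genes tested, 2570 (21.1%) differed between 3 h and 0 h (edgeR quasi-likelihood test, Benjamini-Hochberg adjusted p under 0.05). Levels were lower at 3 h for 1667 genes (13.7%) and higher for 903 (7.4%). The rises depended on the fit, with 276 on library totals (2104 falls), 393 with a mean of at least 50 counts and 202 without mQ T 3 h replicate 1. The falls went further than the rises, with 1036 genes called lower by at least 2-fold and 191 by at least 8-fold, against 140 and 60 called higher by these sizes. TMM scaling sets the typical mRNA near 0 (the median log2 change was 0.04), so each change is relative to it and a rise need not be a gain of molecules. In a bulk lysate, fewer cells with an mRNA and less of it per cell cannot be told apart. Another scale used 82 stable genes, picked here in the medium experiment by a rule taken from the study's methods. The paper gives that rule for its MAPKi and DMSO conditions. On this scale the median log2 change was -0.69, and 8439 genes (69.2%) were lower and 83 (0.68%) higher. That median was -0.63, -0.72 and -0.85 in replicates 1, 2 and 3 (mean -0.733 ± 0.108, SD, n = 3). The 82 genes were picked for a rise in CPM in these same libraries, so a negative median follows from the choice. The choice also sets its size: on the scale of the 3 genes that rose at both times it was -1.32. There 11267 genes were lower.

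The 15 largest falls included mRNAs of feedback regulators of growth factor and stress signalling. CHAC1, which encodes an enzyme that degrades glutathione and is a target of ATF4, lies at chr15:40952962-40956512 on the plus strand. Its level was 126, 147 and 167 CPM in the 3 libraries at 0 h and 0.71, 2.90 and 2.72 CPM at 3 h. The 0 h and 3 h libraries did not overlap, as was the case for 39.8% of all genes tested, and 71.3-fold separated the groups (log2 change -6.16 ± 0.29, SE, edgeR adjusted p = 1.1e-07). DUSP6, a phosphatase that inactivates ERK (chr12:89347235-89352501, minus strand), had 598, 348 and 656 CPM at 0 h and 6.27, 7.09 and 10.99 CPM at 3 h. Its log2 change was -6.03 ± 0.28 (edgeR adjusted p = 9.37e-08), which left 1.53% of its level relative to the typical mRNA and 0.921% on the stable-gene scale.

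SPRY2, an inhibitor of receptor tyrosine kinase signalling (chr13:80335976-80341126, minus strand), fell from 93.5, 98.8 and 101 CPM to 1.42, 2.58 and 3.51 CPM. The 3 libraries of a time lay close together, and the log2 change was -5.29 ± 0.23 (edgeR adjusted p = 9.37e-08). DDIT4, an inhibitor of mTORC1 that is induced by stress (chr10:72273919-72276036, plus strand), fell from 257, 218 and 315 CPM to 9.58, 9.83 and 8.27 CPM, a 28.7-fold drop (log2 change -4.84 ± 0.17, edgeR adjusted p = 2.04e-08, the smallest of all genes). ADM, which encodes the peptide adrenomedullin, and TRIB1, a pseudokinase, fell by 5.29 and 5.60 on the log2 scale.

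Several of these mRNAs were nearly gone at 3 h. SNAI1, a repressor of epithelial genes, had 51, 40 and 97 counts at 0 h and 1, 0 and 0 at 3 h, a ratio of 170 after correction for library totals (exact 95% interval from counts 30.1 to 6734). RGS16, which speeds up GTP hydrolysis by G proteins, went from 44, 71 and 36 counts to 0, 0 and 1 (ratio 136, interval 24.1 to 5415). These intervals cover counting error only. CCN1, a secreted matrix protein, had 34.4 and 29.9 CPM in replicates 1 and 3 at 0 h but 4.33 CPM in replicate 2, and 0.47 to 0.91 CPM at 3 h (log2 change -5.13 ± 0.74, edgeR adjusted p = 0.000453). Also among the falls were MIR222HG (the host transcript of microRNAs 221 and 222), BIN3-IT1, EBLN2, the mitochondrial prolyl-tRNA synthetase PARS2 and the pseudogene HSP90AB4P, with log2 changes of -5.62 to -4.88. HSP90AB4P may share reads with its parent genes and is uncertain.

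**Figure D1:**
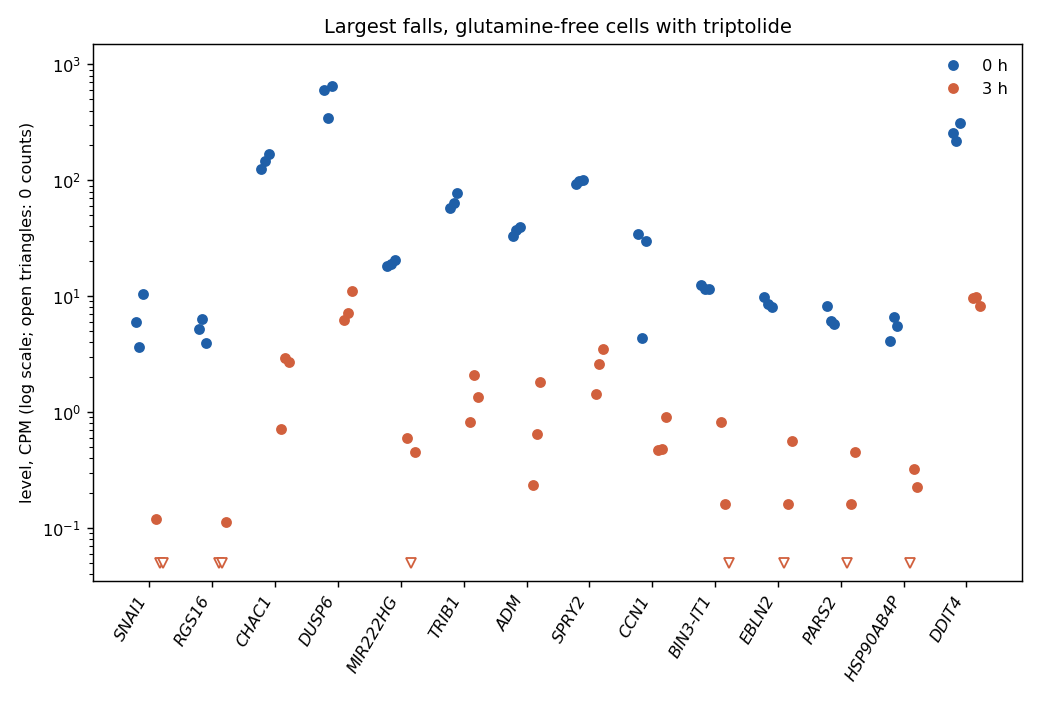
Levels (CPM on a log axis) of 14 of the 15 largest falls in the 3 libraries at 0 h (blue) and the 3 at 3 h (orange) of glutamine-free cells with triptolide, 1 point per library; open triangles mark 0 counts and are drawn at a fixed height. In each of the 14 genes all 3 h points lie below all 0 h points, with the 4.33 CPM of CCN1 in replicate 2 as the one 0 h point far below its group.

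Genes were then described in lists, whose counts stand beside 13.7% of all genes lower and 7.4% higher. Of 26 immediate early genes, which growth factors switch on without new protein synthesis, 23 were tested, 21 were lower and 0 higher, with a median log2 change of -3.01 against 0.04 over all genes. JUN, a subunit of the transcription factor AP-1, had 14.7, 21.4 and 33.2 CPM at 0 h and 1.06, 0.64 and 1.02 CPM at 3 h (log2 change -4.62 ± 0.38, edgeR adjusted p = 6.09e-06). IER2 fell from 163, 202 and 250 CPM to 7.57, 8.38 and 12.9 CPM, and MCL1, an inhibitor of apoptosis, from 234, 175 and 341 CPM to 30.04, 30.3 and 32.3 CPM. The lowest log2 change was that of EGR2, at -5.34 with 66 counts against 1 over 3 libraries each, while FOS (-2.72), KLF6 (-3.79), MYC (-4.55) and MCL1 (-3.02) were all lower. SRF (-0.12, edgeR adjusted p = 0.674) and NR4A1 did not pass.

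Genes that signalling pathways induce as feedback or targets were taken next. Among 13 ERK feedback genes 6 were lower (DUSP4, DUSP5, DUSP6, SPRY2, SPRY4 and PHLDA1) and 0 higher, with a median of -0.81 (-1.44 to -0.46 leaving out 1 library). The ERK pathway inhibitors SPRY1 (-0.81), SPRED1 (-0.29) and SPRED2 (0.10) did not pass. The transcription factors ETV1, ETV4 and ETV5 and the cyclin gene CCND1, in the same list, had log2 changes of 0.08 to 0.45 and did not pass. Of 11 tested genes of the TGF-beta and ID list, 9 were lower (median -2.55), led by SMAD7, the inhibitory SMAD, at -4.33, and by BAMBI and TGIF1 at -3.79 and -3.73, while PMEPA1 (-0.23) did not pass. Of 10 tested NF-kappaB feedback genes, 5 were lower (median -0.60, -1.27 to -0.52 leaving out 1 library), with NFKBIZ at -4.81 and NFKBIA at -4.04, whereas the subunit genes NFKB1, NFKB2 and RELB lay between -0.22 and 0.07. Among 14 tested p53 targets 5 were lower (median -0.44, -0.78 to -0.29 leaving out 1 library), led by the kinase gene PLK2 at -3.67 and the BH3-only gene BBC3 at -3.51, with CDKN1A at -0.47 (edgeR adjusted p = 0.149).

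The mRNAs of some decay factors were themselves among the falls. Of 13 tested genes that bind AU-rich elements or shorten poly(A) tails, 4 were lower, namely ZFP36L1 (-2.70), TOB2 (-2.56), ZFP36L2 (-1.93) and TOB1 (-1.37), and ELAVL1, which stabilises such mRNAs, was higher (0.41). The 4 tested deadenylase subunit genes of the CNOT family had log2 changes of -0.08 to 0.18 and did not pass. Neither did KHSRP (0.02), HNRNPD (0.27), PAN2 (0.63) and PAN3 (-0.11). In all 8 of the 13 did not pass, and the list median was -0.03.

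**Figure D2:**
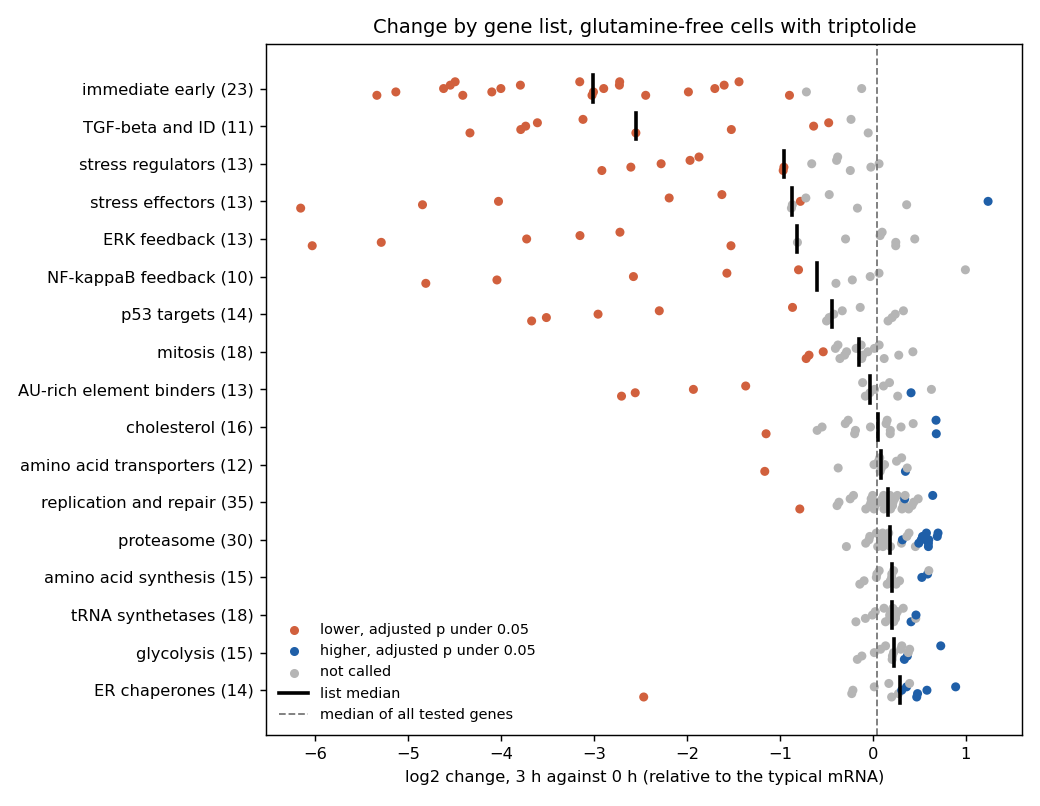
Log2 change at 3 h against 0 h for each tested member (1 point per gene, number of genes in brackets) of 17 gene lists, coloured by direction where the edgeR adjusted p was under 0.05 and grey otherwise; black bars are list medians and the dashed line is the median of all tested genes. The immediate early list lies furthest left, with a median of -3.01, and the ER chaperones furthest right, with 0.29.

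Genes of the amino acid stress response held many mRNAs that were lower and several that did not pass. They were listed by name, not by a rise without glutamine in these data. Of 13 regulators 7 were lower and 0 higher (median -0.96), and of 13 tested effectors 6 were lower and 1 higher (median -0.87). In pQ cells 9 of 12 tested regulators (median -1.13) and 8 of 12 tested effectors (median -0.87) were lower. The falls in these lists were thus not particular to glutamine-free cells. DDIT3, which encodes the death-promoting factor CHOP, had 168, 217 and 260 CPM at 0 h and 6.98, 9.83 and 68.1 CPM at 3 h. The third of these stood apart, and the log2 change was -2.91 ± 0.60 (edgeR adjusted p = 0.00516). ATF3 went from 33.0, 32.0 and 48.9 CPM to 2.01, 5.80 and 10.9 CPM (log2 change -2.60 ± 0.40), and PPP1R15A, which directs dephosphorylation of eIF2α, from 155, 116 and 223 CPM to 15.3, 24.0 and 68.8 CPM (-2.19 ± 0.42). In all 3 genes replicate 3 was the highest at 3 h. The transcription factor genes CEBPB (-2.28), BHLHE40 (-1.97), CEBPD (-1.87), XBP1 (-0.96) and MAFF (-0.96) were also lower. TXNIP, an arrestin that limits glucose uptake, fell by 4.03 on the log2 scale, from 284, 158 and 640 CPM to 14.7, 16.6 and 34.7 CPM.

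For other mRNAs of the response no difference from the typical mRNA passed the test. Several leaned down, with ADM2 at -0.88, VEGFA at -0.87 (edgeR adjusted p = 0.0524) and GDF15 at -0.72 (edgeR adjusted p = 0.0614). NUPR1 (0.07) and VLDLR (0.36) lay above 0. With the TCHX 0 h libraries as baseline, chosen after seeing the data, VEGFA, CEBPG, TRIB3, ADM2, GDF15 and STC2 were called lower. By their labels these 0 h cells were given cycloheximide and the T arm was not, so that contrast mixes time with treatment. ATF4, ATF5, JDP2, KLHL24, NUPR1 and VLDLR were not called with that baseline. TRIB3, a pseudokinase that inhibits ATF4, had 274, 208 and 321 CPM at 0 h and 223, 223 and 236 CPM at 3 h, with overlapping libraries (log2 change -0.24 ± 0.14, edgeR adjusted p = 0.246). NUPR1, a small chromatin protein, had 77.3, 59.1 and 127 CPM against 81.1, 65.9 and 129 CPM (0.07 ± 0.27). ALDH1L2, of mitochondrial folate metabolism, and JDP2, a repressor of AP-1, had log2 changes of -0.14 and -0.02. ATF4 itself had 1150, 1470 and 1225 CPM at 0 h and 537, 633 and 1292 CPM at 3 h. Replicates 1 and 2 were below all 0 h libraries and replicate 3 was not (log2 change -0.66 ± 0.25, edgeR adjusted p = 0.084). ASNS and SESN2 had at most 9 and 5 counts in any of the 6 libraries and were not tested. Reads of SESN2 also lay under an extra name, with 20, 59 and 36 counts at 0 h and 2, 11 and 10 at 3 h (log2 change -1.95, edgeR adjusted p = 0.0321). The glycolysis genes LDHA and ALDOA and the proteasome gene PSMB3 were at 0 counts under their own names, so a low count in this table need not be a low mRNA level. SQSTM1, an autophagy receptor, was the one effector called higher (1.24, edgeR adjusted p = 0.0409). That call was lost in 4 of 6 fits that left out a library: each of mQ T 0 h replicates 1 and 2 and mQ T 3 h replicates 2 and 3 (largest adjusted p = 0.16).

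Among the genes of amino acid supply 5 were called higher and 1 lower. Of 15 tested amino acid synthesis genes 2 were higher and 0 lower (median 0.20), and of 18 cytoplasmic aminoacyl-tRNA synthetase genes 2 were higher and 0 lower (median 0.21, from CARS1 at -0.18 to HARS1 at 0.46). Among 12 tested amino acid transporter genes, SLC38A2, a glutamine transporter that cells induce when amino acids run short, was the one lower (SLC1A5 was higher, 0.35, edgeR adjusted p = 0.049), from 291, 314 and 387 CPM to 115, 159 and 172 CPM (log2 change -1.16 ± 0.16, edgeR adjusted p = 0.000272). The cystine transporter gene SLC7A11 had 419, 369 and 565 CPM against 532, 537 and 617 CPM (0.31 ± 0.14, edgeR adjusted p = 0.142). The genes called higher were 13.3% of the synthesis, 11.1% of the synthetase and 8.33% of the transporter genes, beside 7.4% of all genes. Leaving out 1 library gave 0 to 2, 0 to 4 and 0 to 3 higher genes in these lists.

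The 2 largest classes were zinc finger genes and genes of the translation and respiration machinery. Of 357 tested genes named ZNF, most of which encode DNA-binding repressors, 196 (54.9%) were lower and 2 higher, with a median log2 change of -1.03. Of 78 tested cytosolic ribosomal protein genes, 49 were higher relative to the typical mRNA and 1 lower (median 0.35), and of 68 respiratory chain genes 37 were higher and 0 lower (median 0.38). These counts of higher genes were 11 and 6 without mQ T 3 h replicate 1, 12 and 9 without mQ T 3 h replicate 2, 13 and 14 without mQ T 0 h replicate 1, 13 and 9 on library totals, and 1 and 0 with all 18 mQ libraries in the fit. The 18 include mQ T 5 h replicate 3, which carried the leukocyte marker reads given above. On the stable-gene scale these medians were -1.76, -0.38 and -0.36. That scale rests on genes picked for a rise, so it cannot show whether the ribosomal and respiratory mRNAs fell. With the 0 h libraries of the TCHX arm as the baseline, chosen after seeing the data, 67 of 79 ribosomal protein genes and 27 of 68 respiratory chain genes were higher. That baseline also differs from the T arm in cycloheximide. Among the other lists, 10 of 30 proteasome genes and 6 of 14 tested ER chaperone genes were higher, with DNAJB9 of the latter lower (-2.46), and 3 of 15 glycolysis genes were higher. Leaving out 1 library gave 3 to 10, 0 to 5 and 0 to 4, with 3, 0 and 0 without mQ T 3 h replicate 1, and library totals gave 4, 2 and 0. The call of DNAJB9 was lost in 5 of the 6 fits that left out a library and kept without mQ T 0 h replicate 2. Of 35 replication and repair genes, 2 were higher (RPA3 led at 0.64) and BRCA2 was lower (-0.79), and of 18 mitosis genes 3 were lower, led by CENPE at -0.72, a share of 16.7% beside 13.7% of all genes. The NRF2 targets, 13 in all, had 4 higher (TXN at 0.93) and 2 lower (OSGIN1 at -0.87), the 16 cholesterol genes 2 higher and 1 lower, the 14 snoRNA host genes 1 higher and 3 lower (SNHG12 at -1.41), the 71 mitochondrial ribosomal protein genes 9 higher and 1 lower, and both tested GADD45 genes were lower (GADD45B at -2.86 and GADD45A at -1.62). HES1, a repressor induced by Notch signalling, was lower (-4.50), and VLDLR, a lipoprotein receptor gene, did not pass (0.36). MITF and SOX10, transcription factors of the melanocyte lineage, were lower (-0.92 and -1.03), as were TFAP2A and PAX3, and S100B was higher (0.68).

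Gene structure differed between the classes. A coding transcript of GENCODE v44 was matched for 10709 tested genes (87.8%). Of the 194 genes with a single exon, 50.5% were lower, and of the 462 with 2 exons 41.8%, against 20.5% for 3 to 5 exons, 11.2% for 6 to 10 and 7.69% for 11 or more. Median log2 changes in the same order were -0.75, -0.61, 0.01, 0.10 and 0.08. Without the zinc finger and immediate early lists, 42.5% of the 624 genes with 1 or 2 exons were lower. Leaving out each library in turn gave 37.7% to 47.8% for single-exon genes and 4.17% to 7.56% for 11 or more exons. Genes are not independent replicates, so these are descriptions without a test.

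**Figure D3:**
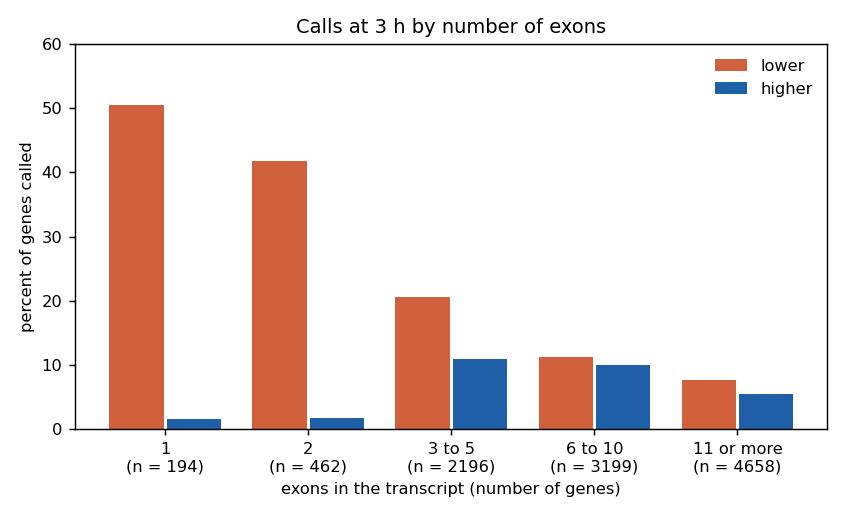
Percent of tested coding genes called lower (orange) and higher (blue) at 3 h, by the number of exons of the transcript, with the number of genes in each bin below. The share called lower goes from 50.5% in single-exon genes to 7.69% in genes with 11 or more exons.

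The motif TATTTAT occurred in the 3′ UTR of 31.2% of all coding transcripts, 37.99% of tested genes, 47.2% of genes called lower and 30.02% of those called higher. Among genes called lower by at least 8-fold it occurred in 42.8%. Genes without the motif were called lower in 11.6% of cases, those with 1 in 15.8%, with 2 in 20.02% and with 3 or more in 16.5%. Longer 3′ UTRs hold more matches, and among 3′ UTRs of up to 451 bases the share called lower was 16.9% with the motif against 6.95% without it, and among those of 3367 bases or more 16.3% against 14.4%. The sites of CHAC1, DDIT3 and ATF3 printed above were each the only match in their 3′ UTR, while RGS16 held 4. Short coding regions were called lower less often, with 7.63% of those up to 765 bases and 13.2% to 16.9% in 4 bins of longer ones.

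The genes with the largest rises were hardly read at 0 h. LEP, which encodes the hormone leptin (chr7:128241278-128257629, plus strand), had 0 counts in each 0 h library and 244, 171 and 178 counts at 3 h, at least 219-fold higher by a floor of 3 counts over the 0 h group. PBOV1, LMOD3, COL21A1 and SLC2A2 likewise had 0 counts at 0 h, with rises of at least 172-, 157-, 70.2- and 60.6-fold. TMPRSS15, the intestinal protease enteropeptidase, had 3 counts in all at 0 h (ratio 69.1, exact 95% interval 23.3 to 338) and EVADR also 3 (ratio 59.5, interval 19.996 to 292). DCAF4L2 had 0, 0 and 10 counts at 0 h and 285, 195 and 318 at 3 h. The receptor gene IL1R2 and LINC00926 completed the 10, with log2 changes of 5.78 and 3.42.

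In all, 26 genes had 0 counts in every 0 h library and at least 10 in every 3 h library, a set described after its values were seen, of which 16 had LOC or LINC names. Summed over the 26, the level was 144 to 158 CPM at 3 h and 47.5 to 49.9 CPM at 5 h. It was 98.3 to 155 CPM at 3 h in pQ cells of the T arm, with at most 1.61 CPM at 0 h, and 102 to 137 CPM at 3 h in the TCHX arm of mQ cells. The sequence of 0 h near 0, a high 3 h and a lower 5 h was thus present in both media and both arms. The source of these reads under triptolide was not tested. Of the 0 h libraries of the medium experiment, pQ TCHX 0 h replicate 3 was the highest, at 34.7 CPM, and the others had at most 1.61 CPM. In the other direction, 13 genes had at least 10 counts in each 0 h library and 0 in each 3 h library, among them the phosphatase genes DUSP1 and DUSP2, BBS12 and ZNF547.

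**Figure D4:**
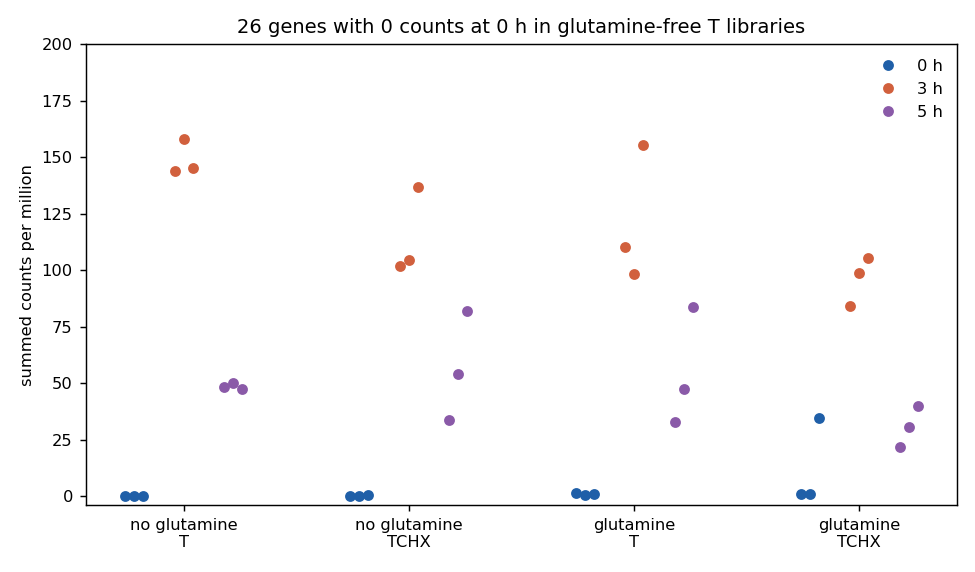
Summed level (CPM, computed on library totals) of the 26 genes with 0 counts at 0 h in glutamine-free T libraries, in each library of the medium experiment at 0 h (blue), 3 h (orange) and 5 h (purple), by medium and arm. The 12 libraries at 3 h lie between 84.2 and 158 CPM, and 1 library at 0 h, pQ TCHX replicate 3, lies at 34.7 CPM.

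Whether loss relative to the typical mRNA differed between glutamine-free and control medium was tested as the difference of the 2 changes. TMM scaling removes a difference in the overall speed of loss between media, so this test cannot show one. Of 12943 genes tested, 2 (0.0155%) passed, 1 in each direction (0.00773% each; edgeR adjusted p under 0.05), and 1495 had an unadjusted p under 0.05; DESeq2 called 58. CCNL1, a cyclin that takes part in splicing, had 82.9, 63.7 and 80.0 CPM at 0 h and 24.3, 26.8 and 22.2 CPM at 3 h in mQ cells. In pQ cells it had 85.3, 79.0 and 75.2 CPM and then 7.54, 9.81 and 11.1 CPM. The 0 h levels overlapped and the 3 h levels did not, and the fall was smaller in mQ by 1.40 ± 0.21 on the log2 scale (edgeR adjusted p = 0.0346). SPRY2 went the other way, with 62.4, 57.9 and 59.2 CPM and then 4.35, 6.69 and 5.02 CPM in pQ cells, so that its fall was larger in mQ (-1.84 ± 0.29, edgeR adjusted p = 0.0467). Leaving out each of the 12 libraries in turn gave 0 calls in 7 fits, so that both calls were lost there, and the replicate block also lost both (differences of 1.41 and -1.85, edgeR adjusted p = 0.0795 for each).

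CHAC1 was 2.14, 1.74 and 2.84 CPM at 0 h in pQ cells and 0.32, 0.69 and 0.31 CPM at 3 h, a log2 change of -2.34 beside -6.16 in mQ (difference -3.83 ± 0.76, edgeR adjusted p = 0.098). The pQ libraries held 21, 19 and 37 counts of it at 0 h and 3, 6 and 3 at 3 h. In the pQ libraries' own test, 1821 genes (14.8% of 12309) were lower in pQ at 3 h and 1064 (8.64%) higher, 23.4% in all (2335 and 1873 with the replicate block). Of the 1667 genes lower in mQ, 1229 were also called lower in pQ, which is 73.7% of the mQ list and 67.5% of the pQ list (81.2% and 58.0% with the block). Of the 903 higher in mQ, 251 (27.8%) were called higher in pQ, 23.6% of that list (45.4% and 21.9% with the block). By list, 21 of 22 tested immediate early genes and 204 of 347 zinc finger genes were lower in pQ at 3 h. In the same test 55 of 78 cytosolic ribosomal protein genes were higher. Across 11867 genes the 2 sets of log2 changes, which come from different libraries, had Pearson's r of 0.82 and Spearman's rho of 0.57.

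The mRNAs raised by glutamine loss were chosen in libraries outside the comparison, as those higher in mQ than in pQ at 0 h of the TCHX arm (478 of 12521 genes, 3.82%, edgeR adjusted p under 0.05; 332, 2.65%, were lower, 6.47% in all). One of those libraries, pQ TCHX 0 h replicate 3, carried the leukocyte marker reads given above. A choice without this library is given below, while the part of the reads themselves was not tested. Of the 477 raised genes tested here, 115 (24.1%) were lower at 3 h and 27 higher, with a median of -0.07. Of the 325 lowered genes, 51 (15.7%) were lower and 14 higher, with a median of -0.01. When replicate 3 of pQ TCHX 0 h, which stood apart, was left out (an alternative added after seeing the data), 1321 genes were raised and 1234 lowered. Of those tested here, 240 of 1303 raised genes (18.4%) and 160 of 1218 lowered genes (13.1%) were lower at 3 h. These shares stand beside 13.7% of all genes.

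The last comparison asked which mRNAs were lost to a different extent when translation was blocked as well. The change over 3 h was more positive with cycloheximide for 823 of 13062 genes (6.30%) and more negative for 30 (0.23%), 6.53% in all (edgeR adjusted p under 0.05). The more negative count varied, with 311 without mQ T 0 h replicate 3, 111 without mQ T 3 h replicate 3, 9 without mQ T 3 h replicate 1, 287 without a filter, 137 with DESeq2 and 77 with the replicate block. This test shares its triptolide libraries with the falls above, and each arm's own values are therefore given. CHAC1 had 119, 124 and 169 CPM at 0 h and 84.1, 74.3 and 121 CPM at 3 h in the TCHX arm, a log2 change of -0.55 (edgeR adjusted p = 0.062, or 2.28e-06 with the replicate block) beside -6.16 in the T arm (difference 5.66 ± 0.37, edgeR adjusted p = 6.8e-08). DUSP6 had 582, 500 and 656 CPM and then 332, 288 and 489 CPM (difference 5.44 ± 0.35), and ADM 27.5, 32.8 and 41.7 CPM and then 28.3, 26.3 and 29.7 CPM (difference 5.07 ± 0.39). SNAI1, also among the 5 most positive that the naming rule gave, had a difference of 5.77. In the stress lists, 6 of 13 regulators and 6 of 13 effectors had a more positive change, DDIT4 (3.57), TXNIP (3.34), ATF3 (2.75), DDIT3 (2.70), PPP1R15A (2.43) and CEBPB (2.43) among them, and so did 17 of 23 immediate early genes.

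Some mRNAs fell in both arms. MIR222HG had 18.7, 11.1 and 19.2 CPM and then 0.44, 0.28 and 0.51 CPM in the TCHX arm, a log2 change of -5.23 beside -5.62 in the T arm (difference 0.45 ± 0.70, edgeR adjusted p = 0.8). EBLN2 (-6.39 beside -5.04), BIN3-IT1 (-4.35 beside -5.08) and NFKBIZ (-4.40 beside -4.81) also fell in both arms. In the TCHX arm alone 385 genes (3.05% of 12611) were lower at 3 h and 137 (1.09%) higher, 4.14% in all (682 and 312 with the replicate block). Of these, 322 of the 385 (83.6%) were also called lower in the T arm, which is 19.3% of the 1667 (73.2% and 29.9% with the block). The most negative differences were small in size, with MARCHF2 (-1.34), TMEM14A (-0.89), SRP9 (-0.84), STARD3NL (-0.83) and TMEM59 (-0.81) named by the rule. For TMEM14A, SRP9 and STARD3NL the level rose in the T arm and the mean 0 h level of the T arm was below that of the TCHX arm (25.2 against 41.7, 45.3 against 81.4 and 24.9 against 37.4 CPM). With the TCHX 0 h libraries as the baseline their log2 changes were 0.32, -0.01 and 0.23 with edgeR adjusted p-values of 0.162, 0.961 and 0.259.

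**Figure D5:**
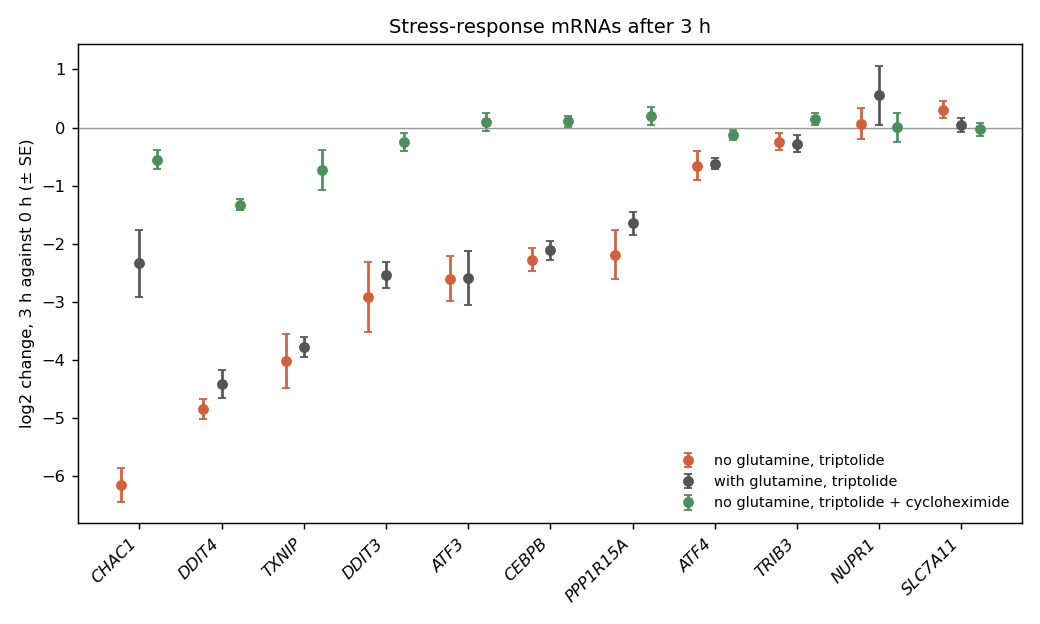
Log2 change at 3 h against 0 h (points, with SE bars from edgeR, 3 libraries a time) of 11 mRNAs of the stress response in glutamine-free cells with triptolide (orange), cells with glutamine and triptolide (grey) and glutamine-free cells with triptolide and cycloheximide (green). CHAC1 lies at -6.16, -2.34 and -0.55 in these, while TRIB3, NUPR1 and SLC7A11 lie between -0.28 and 0.56 in all 3.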

How the data were processed

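The deposited values are raw counts per gene name. Per the labels and the study's methods, the authors trimmed forward reads (fastp 0.20.1), mapped them to GRCh38.p13 (HISAT2 2.2.1) and counted them with htseq-count (HTSeq 0.13.5). The strand setting is not given in the sources used here. The sources name no molecular identifiers, and PCR duplicates may be among the counts, so intervals cover counting error only.

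Groups came from the sample titles, and 0 sample columns were left unmapped. Counts were tested in R 4.3.3 with edgeR 4.0.16 (filterByExpr, TMM, quasi-likelihood F-test, two-sided, no replicate block unless named, Benjamini-Hochberg threshold 0.05) on 6 libraries, or 12 for differences of changes. CPM in the text are scaled by TMM over the 36 libraries of the medium experiment, except where library totals are named. Stable genes rose by at least 1.1 times in CPM in every replicate and arm; they were picked on the same libraries and gave an alternative scale. Alternatives also used DESeq2 1.42.0. Steps were tested on simulated counts. Same-numbered 0 h and 3 h libraries deviated together from their group means in the pQ T arm (r of 0.10, 0.15 and 0.27) and the mQ TCHX arm (0.13, 0.17 and 0.28), a pairing seen in the data and not stated by the labels, so values with the replicate block stand beside those 2 comparisons.

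Named genes were the 15 largest falls and 10 largest rises called in the same direction in all 3 same-numbered pairs with a mean of at least 50 counts, without LOC names and extra copies (5084 of 44659 names), the 5 largest differences each way, stress genes by name, and extremes of lists; some genes that the rule gave are not reported here. The members, lists and tests were chosen with earlier results of these data known. Mitochondrially encoded genes were not analysed here.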

Additional observations from a re-analysis of the deposited data

Results flagged for a closer look

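For CCNL1 and SPRY2 a test of the difference between the media (edgeR) passed the threshold: the change of CCNL1 was more positive in mQ by 1.40 on the log2 scale, and that of SPRY2 more negative (-1.84). Both calls were lost with the replicate block and in 7 of the 12 fits that left out a library.

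Libraries outside the comparison held signals well above those of others of their group. In mQ T 5 h, replicate 3 had 24.9 CPM of JUN against 1.38 and 0.26 CPM in replicates 1 and 2, and 18.0 CPM of CHAC1 against 0.46 and 1.92 CPM. In pQ TCHX 0 h, replicate 3 had a summed level of 34.7 CPM for the 26 genes that had 0 counts at 0 h in glutamine-free T libraries. The same 2 libraries held leukocyte markers at a summed 61.8 and 61.5 CPM, against 0 to 1.80 CPM in the other 34; the part of such reads in these values was not tested.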

How the results depend on the processing

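The 2570 calls of the 3 h comparison became 8522 on the stable-gene scale and 11336 on the scale of the 3 genes stable at both times. They became 981 with all 18 mQ libraries in the fit (1 estimate of the spread for all groups, mQ T 5 h replicate 3 among the libraries). Against a 1.5-fold change there were 897. The 2570 calls stayed within 1.5 times under DESeq2, median-of-ratios scaling, library totals, both filters and both added 0 h baselines. The 903 rises became 276 on library totals, 393 with a mean of at least 50 counts and 1513 with both arms as baseline. Leaving out 1 library gave 1323 to 2636 calls, the lowest without mQ T 3 h replicate 1, and leaving out both libraries of a number gave 898 to 2728. Rises were the more sensitive, with 202 to 992 of them. With the TCHX 0 h libraries as baseline, which also differ in cycloheximide, 388 of the 903 rises and 1485 of the 1667 falls kept their call and direction. The 2 calls of mQ against pQ became 1 on the stable-gene scale, 389 without a filter, 58 with DESeq2, 1 other gene with the replicate block and 0 to 42 leaving out 1 library. The 810 calls between media at 0 h in the TCHX arm became 1251 without a filter, 1269 with DESeq2 and 133 to 2555 leaving out 1 library, the highest without pQ TCHX replicate 3. The 853 calls between arms stayed within 1.5 times under the alternatives run (590 to 1098 leaving out 1 library), while the 30 more negative ones ranged from 9 to 311. The cause of these moves was not tested.

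In the mQ T arm the replicate numbers did not meet the limit for a pairing (every r over 0.1): same-numbered deviations from the group means correlated with r of 0.17, 0.03 and 0.02 at numbers 1, 2 and 3, and 1 of 3 libraries correlated best with its own number. Between media at 0 h of the TCHX arm r was at most 0.06. Replicate 3 was the highest in nuclear RNA in 11 of 12 groups. With the replicate block the comparison gave 2622 calls (959 higher, 1663 lower), 992 between arms and 717 between media at 0 h. Alone, the pQ T arm gave 4208 calls with the block against 2885 and the mQ TCHX arm 994 against 522.

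Of 96 named genes, 9 changed sign relative to the median gene in some fit. Over the fits that left out libraries, NUPR1 ranged from -0.29 to 0.39, JDP2 from -0.19 to 0.090, SRF from -0.38 to 0.014 and PDGFRA from -0.28 to 0.60. NUPR1 was -0.015 on the scale of genes stable at both times and -0.0028 with a mean of at least 50 counts. With the 0 h libraries of both arms, ALDH1L2 was 0.088, PSMC1 0.0091 and PDGFRA -0.21. With those of the TCHX arm alone, ALDH1L2 was 0.38, PSMC1 0.37, CARS1 0.041, SRP9 -0.013, ZNF81 -0.27 and PDGFRA -0.66.

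Depth limits genes under about 10 counts a library, where the 0 h or 3 h level rests on single reads.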
